A study of Mus musculus with 6 samples.

Results

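The SR proteins and the heterogeneous nuclear ribonucleoproteins (hnRNPs) were examined in RNA from whole mouse intestine. Members were the rows of the expression table whose symbol begins with Srsf or Hnrnp followed by a letter or digit, with pseudogenes left out. This gave 31 of 32219 genes, 11 SR genes and 20 hnRNP genes. The series holds 6 RNA-seq libraries, 3 of wild type (WT) and 3 of knockout (KO) tissue by their labels, with no treatment or time point in the labels. The labels list epithelial cells, immune cells and enteric neurons in the tissue, and the design text names the total duodenum, so the RNA is a mixture of cell types. The labels do not name the gene that was knocked out, the cells in which it was deleted, or the animals' strain, sex and age. They also do not say whether each library came from a separate animal, so p-values cover library to library spread, which may be technical.

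SR proteins bind exonic sequences with an RNA recognition motif and recruit splicing factors through a domain rich in arginine and serine, which as a rule promotes inclusion of the exon. The hnRNPs coat nascent transcripts and often act the other way, silencing splice sites, and several also act in RNA export, stability and translation. Many genes of both families control their own level by splicing in an exon with an early stop codon, which sends the transcript to nonsense-mediated decay.

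The library KO 1 could be used for some of the genes only. It was listed at 0 for every gene above 1 elsewhere on chromosomes 2 to 9, X and M and for 61.2% of such genes on chromosome 19, and its other values were 2.12 times those of the other libraries in linear terms (median over 2160 genes). KO 1 was therefore left out of the test, and its values are given after division by this factor, for the 16 members it covers (5 SR and 11 hnRNP). The other 15 members have no usable value in KO 1. Values are the deposited log values, taken as log2(abundance + 1). Neither the base nor the unit is stated, and sums per library do not settle whether the values are per length. Levels of different genes are set side by side below on the assumption that they are, and their order holds only under it. The 5 libraries without KO 1 expressed markers of the distal small intestine (Fabp6 between 8.16 and 8.76) and little of Gata4 (0.43 to 0.63), a factor of the proximal small intestine, which goes against the duodenum named in the design text. KO 1 had the reverse, with Gata4 at 5.19 and Fabp6 at 3.91 after rescaling.

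All members except Srsf12 were well above 0 in each of these 5 libraries. The SR gene with the highest level was Srsf2, which encodes SC35, a protein long used to stain nuclear speckles. It stood at 6.77, 6.71 and 6.86 in WT 1, 2 and 3, against 6.85 in KO 2 and 6.79 in KO 3, so the groups overlapped. Srsf11 followed, and Srsf5, Srsf3, Srsf6, Srsf1, Srsf10 and Srsf7 came next, with means over the 5 libraries from 5.31 for Srsf7 to 5.84 for Srsf5. Neighbours in this order, such as Srsf6 (5.52 to 5.64) and Srsf3 (5.59 to 5.69), had overlapping ranges and cannot be ranked. Srsf1, the prototype SR protein also known as ASF/SF2, ranged from 5.44 to 5.65. Its closest relative Srsf9 was lower by 1.55 to 1.84 log2 units in every one of the 5 libraries, at 3.75 to 3.94. Srsf4 was low as well, at 3.87, 3.52 and 3.43 in the WT libraries, against 3.63 in KO 2 and 3.70 in KO 3. WT 1 was the highest and WT 3 the lowest for Srsf4, so the WT libraries enclosed both KO libraries.

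Srsf3 and Srsf7 share a similar domain layout and are known to act in export of messenger RNA as well as splicing. Srsf3 was at 5.67, 5.59 and 5.64 in the WT libraries, against 5.66 in KO 2 and 5.69 in KO 3, a range of 0.10 that was the second narrowest of the members above 1 on average. Srsf7 varied more, from 5.17 in WT 3 to 5.54 in WT 2, and its KO values of 5.40 and 5.26 fell between these. Srsf10, a splicing repressor when dephosphorylated, ranged from 5.20 in WT 1 to 5.55 in KO 2. Its relative Srsf12 was close to the lower limit, at 0.33, 0.53 and 0.37 in the WT libraries, against 0.24 in KO 2 and 0.27 in KO 3. Srsf12 lay 4.74 to 5.32 units below Srsf10 on the log2(abundance + 1) scale, which understates the ratio for a gene this close to 0.

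Among the hnRNPs, Hnrnpk and Hnrnpa2b1 had the highest levels. Hnrnpk, which binds cytosine-rich sequences through KH domains, was at 7.19, 7.29 and 7.28 in the WT libraries, against 7.35 in both KO 2 and KO 3. KO 2 and KO 3 lay above the 3 WT values, by 0.06 at the nearest point, while rescaled KO 1, at 7.11, lay below them. Hnrnpa2b1, an A/B type hnRNP that also acts in RNA transport, was at 7.19, 7.12 and 7.21 in the WT libraries, against 7.22 in KO 2 and 7.20 in KO 3, with a range of 0.10 and overlapping groups. The other A/B genes were lower than Hnrnpa2b1: Hnrnpa1, a repressor of exon inclusion, ranged from 5.07 to 5.35, and Hnrnpa0, which is encoded by an intronless gene, from 4.72 to 5.01. Hnrnpa2b1 exceeded Hnrnpa1 by 1.87 to 2.12 log2 units and Hnrnpa0 by 2.20 to 2.47. Hnrnpab stood at 5.69, 5.59 and 6.005 in the WT libraries, against 5.69 in KO 2 and 5.77 in KO 3, where WT 3 was the highest library and WT 2 the lowest. Exons of Hnrnpab overlap those of Phykpl on the opposite strand, as do those of Hnrnpk with Rmi1, Srsf2 with Mettl23 and Mfsd11, Hnrnph3 with Rufy2, Hnrnpu with Cox20, Hnrnpl with Gm44702, Hnrnpf with 4933440N22Rik and Gm43863, Hnrnpr with Gm27022, Hnrnpd with Gm17092, Srsf1 with Gm11508 and Srsf4 with Gm12992. Without a stated strand setting for the counting, reads of such pairs cannot be told apart. Exons of Hnrnpm overlap those of March2 on the same strand, as do those of Hnrnpul2 with AC129217.1 and Hnrnpa3 with Gm24574. A strand setting would not separate these.

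The H/F genes encode proteins that bind runs of guanine. Hnrnph1 was at 6.33, 6.13 and 6.27 in the WT libraries, against 6.26 in KO 2 and 6.20 in KO 3, all within the WT range. Hnrnpf ranged from 5.82 to 6.11, Hnrnph3 from 3.77 to 4.05 and the X-linked Hnrnph2 from 3.61 to 3.91. Hnrnph1 was thus above Hnrnph2 by 2.29 to 2.72 log2 units and above Hnrnph3 by 2.15 to 2.50, while its margin over Hnrnpf was 0.16 to 0.51. Hnrnpl, a regulator that binds CA repeats, ranged from 6.78 to 6.99. Its paralog Hnrnpll, known for its part in alternative splicing of CD45 in lymphocytes, was at 4.72, 4.63 and 4.67 in the WT libraries, against 4.70 in KO 2 and 4.72 in KO 3. This range of 0.09 was the narrowest of all members above 1 on average. The summed linear level of 9 B and T lymphocyte markers moved far more over the same libraries, at 23.1, 68.1 and 15.5 in the WT libraries, against 111 in KO 2 and 20.5 in KO 3.

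Hnrnpu, a scaffold of chromatin and RNA, was at 6.43, 6.39 and 6.43 in the WT libraries, with 6.58 for KO 2 and 6.24 for KO 3. The KO libraries were the highest and the lowest of the 5, on either side of WT. Hnrnpc, whose tetramers measure the length of nascent transcripts, was also lowest in KO 3, with 5.58, 5.74 and 5.77 in the WT libraries, with 5.75 for KO 2 and 5.41 for KO 3, where KO 2 stayed inside the WT range. Hnrnpm ran the other way, at 5.38, 5.29 and 5.15 in the WT libraries, with 5.28 for KO 2 and 5.49 for KO 3. Hnrnpd (AUF1), a factor in decay of AU-rich messenger RNA, was at 4.50, 4.56 and 4.50 in the WT libraries, against 4.66 in KO 2 and 4.62 in KO 3, without overlap. Its neighbour and paralog on chromosome 5, Hnrnpdl, was at 5.71, 5.60 and 5.66 in the WT libraries, against 5.73 in KO 2 and 5.74 in KO 3, also without overlap. Hnrnpr had the lowest level of the hnRNP genes, between 3.30 and 3.60.

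**Figure D1:**
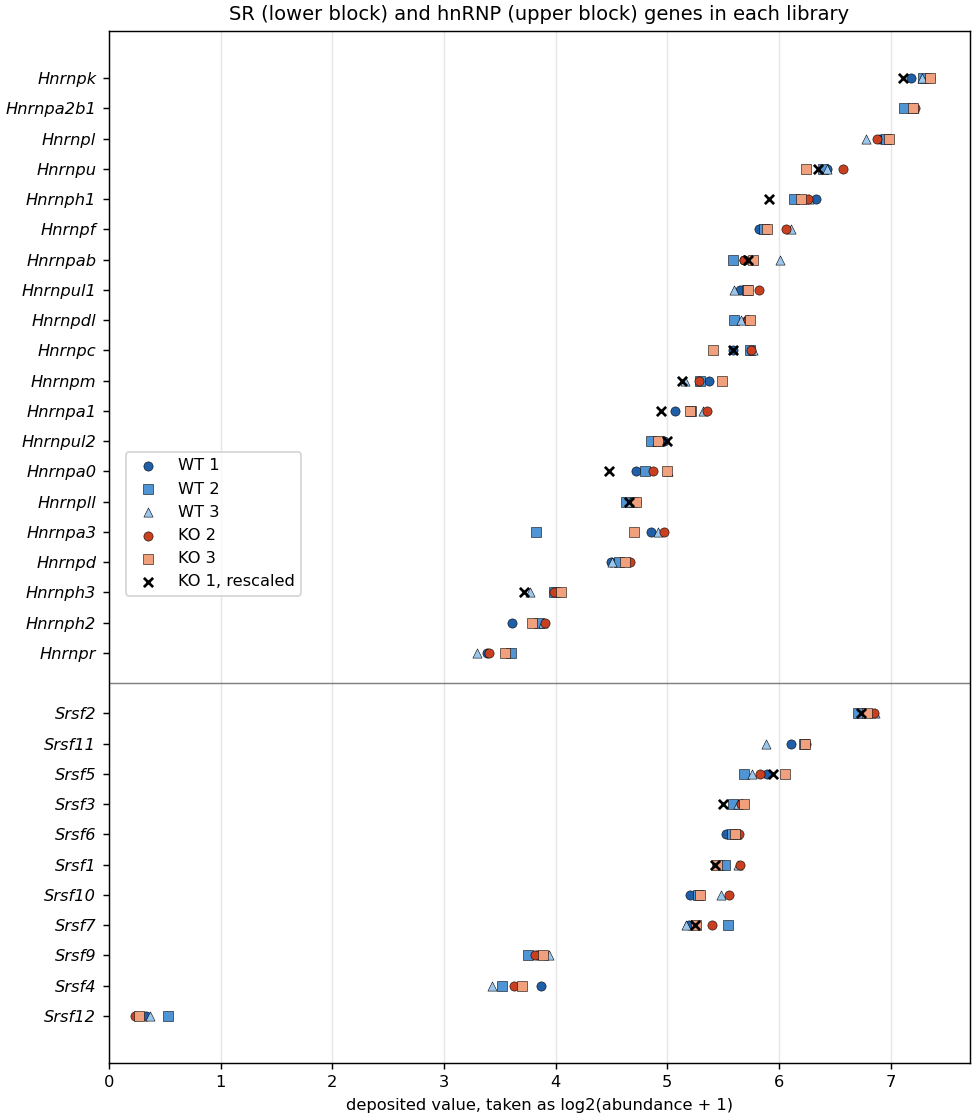
Deposited value of each member (x axis, taken as log2(abundance + 1)) in the 3 WT and 2 KO libraries that cover the genome, with rescaled KO 1 values as crosses for the 16 members it covers. Hnrnpk and Hnrnpa2b1 lie above 7 in the 5 libraries, Srsf12 lies between 0.24 and 0.53, and Hnrnpa3 in WT 2 is the point farthest from its row.

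KO 2 and KO 3 were compared with the 3 WT libraries by limma with a variance trend, two-sided, over the 22047 genes with a value above 0 in 3 or more of these 5, with Benjamini-Hochberg adjustment. All 31 members were tested and 0 passed an adjusted p under 0.05 by limma, against 0.00454% of all genes tested (1 gene). At an unadjusted p under 0.05 the count of members was also 0, against 2.23% of all genes. The fold was above 0 for 25 of the 31 members (9 of 11 SR and 16 of 20 hnRNP), where 61.1% of all genes tested, and 63.4% of those with a mean of at least 3, had a fold above 0. The median log2 fold was 0.04 for SR genes and 0.06 for hnRNP genes, beside 0.03 for all genes tested. With each library centred on its median, 14 of 31 members and 38% of all genes had a fold above 0, and with quantile normalization 22 of 31 members (71%) and 50% of all genes did. The size of the excess of small positive folds thus depended on the scaling.

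**Figure D2:**
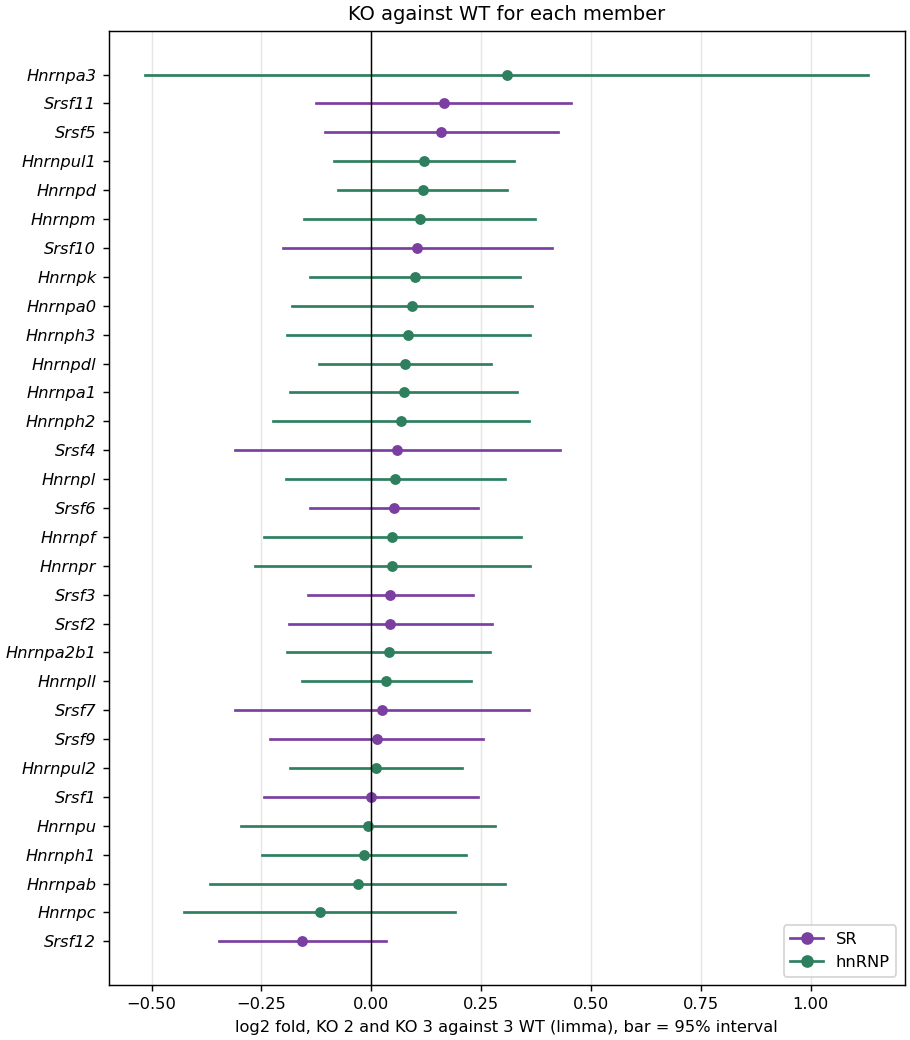
Log2 fold of KO 2 and KO 3 against 3 WT libraries for each member (points) with 95% intervals (bars) from limma, SR genes in purple and hnRNP genes in green. Every interval includes 0, and the interval of Hnrnpa3 is the only one that extends past 0.5 on either side.

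The members with the smallest unadjusted p were examined in each direction, although none passed. Srsf12 came first, with a log2 fold of -0.16 ± 0.08 (SE, limma, adjusted p = 0.99998) on values that are all under 0.6. At this level the size rests on the assumed constant of 1: the fold was -0.54 with a constant of 0.1 and -0.04 with a constant of 5. The folds of the higher members were 0.12 ± 0.08 (SE) for Hnrnpd, 0.16 ± 0.11 for Srsf5, 0.12 ± 0.08 for Hnrnpul1, 0.17 ± 0.12 for Srsf11 and 0.11 ± 0.11 for Hnrnpm. Leaving out 1 library moved most of these: Srsf5 to 0.05 and Hnrnpm to 0.009 without KO 3, Srsf11 to 0.07 without WT 3 and Hnrnpul1 to 0.07 without KO 2. Srsf5, an SR gene known for induction in growing cells, stood at 5.89, 5.69 and 5.76 in the WT libraries. It was at 5.83 in KO 2, inside the WT range, and at 6.05 in KO 3, above WT. Rescaled KO 1, at 5.95, also lay above every WT value. Srsf11, whose product joins the 5' and 3' splice site complexes, stood at 6.10, 6.23 and 5.88 in the WT libraries, against 6.24 in KO 2 and 6.23 in KO 3. KO 3 exceeded WT 2 by 0.0088, and WT 3 was the low library. Hnrnpul1, a relative of Hnrnpu with a part in the DNA damage response, was at 5.65, 5.71 and 5.60 in the WT libraries, against 5.82 in KO 2 and 5.72 in KO 3. On the lower side the folds were -0.12 ± 0.13 (SE) for Hnrnpc, -0.03 ± 0.14 for Hnrnpab, -0.02 ± 0.10 for Hnrnph1 and -0.01 ± 0.12 for Hnrnpu.

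The groups did not overlap for 6 members. Hnrnpd, Hnrnpdl, Hnrnpk, Hnrnpul1 and Srsf11 were higher in KO 2 and KO 3 than in every WT library. These were 5 of 31 members (16.1%), beside 9.82% of all genes tested and 8.91% of those with a mean of at least 3. Srsf12 was lower, 1 of 31 members (3.23%) beside 3.77% of all genes and 1.66% of those with a mean of at least 3. Of these 6 members KO 1 covers Hnrnpk alone, and its rescaled value of 7.11 lay below every WT value. After median centring, Hnrnpul1 and Srsf11 were the members still without overlap on the higher side, 2 of 31 (6.45%) beside 3.37% of all genes, and Srsf12 was lower, 1 of 31 (3.23%) beside 7.06% of all genes. On the scale of the deposited values, the 95% interval of the log2 fold included 0 for all 31 members and lay within 0.5 of 0 on both sides for 30 of them. For Srsf12 this limit depends on the assumed constant, since the fold itself was -0.54 with a constant of 0.1, as given above. Hnrnpa3 was the exception, with an interval from -0.51 to 1.13. Summed over the SR genes, linear levels were 472, 473 and 475 in the WT libraries, against 504 in KO 2 and 492 in KO 3; for the hnRNP genes they were 1066, 1052 and 1097 in WT and 1128 and 1092. KO 2 was the highest library for 12 of the 31 members and the lowest for 1, while WT 2 was the lowest for 11. The matching shares over all genes were not counted, so these counts are not read as particular to the members. KO 2 was above the WT mean for 26 of 31 members and for 5100 of 8012 genes with a mean of at least 3. Summed over all genes, KO 2 was also the highest of the 5 libraries (314569) and WT 2 the lowest (307911). In bulk tissue such as this, fewer cells of a type and less RNA per cell cannot be told apart. The summed level of 9 B and T lymphocyte markers was 111 in KO 2 and 20.5 in KO 3, against 15.5 to 68.1 in the WT libraries. The summed level of 10 proliferation markers was 203, 233 and 248 in the WT libraries, against 252 in KO 2 and 210 in KO 3, and that of 10 enterocyte markers was 1652, 1269 and 1532 in the WT libraries, against 1349 in KO 2 and 2017 in KO 3. The part of these cell types in the members' levels was not tested.

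**Figure D3:**
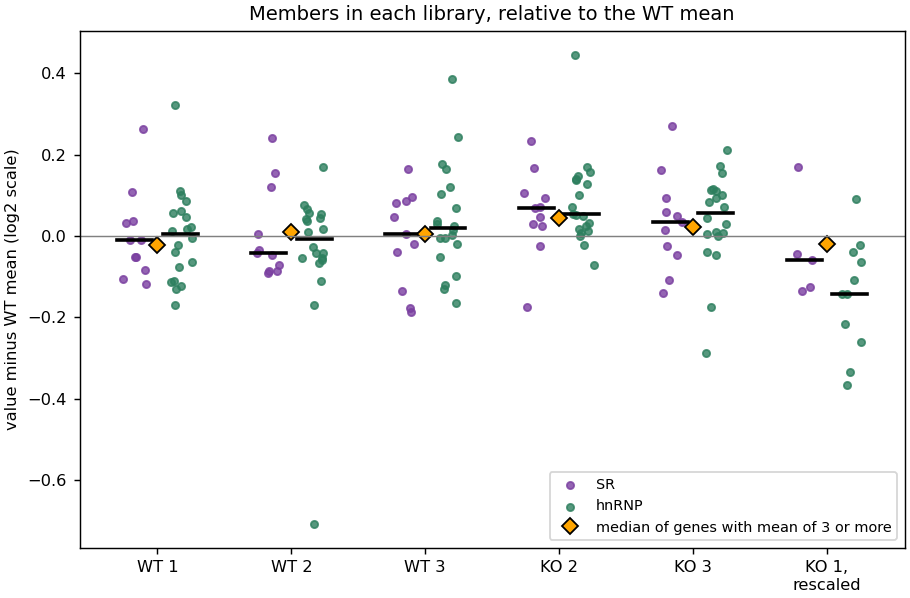
Value of each member minus its WT mean (y axis, log2 scale) in each library, SR genes in purple and hnRNP genes in green, with medians as black bars and the median of all genes with a mean of 3 or more as diamonds. The medians of both families lie between -0.04 and 0.07 in the 5 libraries, the hnRNP genes of rescaled KO 1 have a median of -0.14, and the lowest point, Hnrnpa3, belongs to WT 2.

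The promoters of Srsf11 and Hnrnpul1 are shown because these are the members whose KO libraries stayed above WT with and without centring. Each sequence is the 250 bases upstream of the RefSeq start (GRCm38.p6), read on the minus strand 5' to 3', with CG dinucleotides in capitals. They lie at chr3:158036607-158036856 and chr7:25754760-25755009.
Srsf11: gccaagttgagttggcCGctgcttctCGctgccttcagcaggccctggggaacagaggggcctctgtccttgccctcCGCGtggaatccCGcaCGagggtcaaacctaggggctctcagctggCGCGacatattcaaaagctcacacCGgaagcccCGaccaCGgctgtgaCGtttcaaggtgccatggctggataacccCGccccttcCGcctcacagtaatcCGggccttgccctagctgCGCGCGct
Hnrnpul1: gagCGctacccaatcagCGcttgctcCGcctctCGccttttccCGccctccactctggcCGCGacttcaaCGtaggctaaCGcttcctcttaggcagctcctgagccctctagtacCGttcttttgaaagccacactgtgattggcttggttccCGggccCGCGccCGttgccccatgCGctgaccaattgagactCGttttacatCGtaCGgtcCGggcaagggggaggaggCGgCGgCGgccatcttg
The Srsf11 stretch holds 18 CG dinucleotides and the Hnrnpul1 stretch 22. RefSeq windows of 300 bases (250 before and 50 after the start) were found for 29 of the 31 members, 41 windows in all. Their median was 31 CG per window, beside 7 over all 32851 windows and 21 over the 8193 windows of genes with a mean of at least 3. The ratio of observed to expected CG was at least 0.6 in 97.6% of member windows, beside 35.8% of all windows and 70.8% of those of the genes with a mean of at least 3. Srsf12 was no exception, with 26 CG and a ratio of 0.73 in spite of its low level. The ETS letters CCGGAAG, searched on both strands, occurred in 24.4% of member windows, 8.86% of all windows and 18% of windows of the genes with a mean of at least 3; the member genes were Hnrnpd, Hnrnpf, Srsf11, Srsf4, Srsf5 and Srsf7. The CCAAT letters occurred in 51.2% of member windows, 37.4% of all windows and 36.7% of windows of the genes with a mean of at least 3. Windows of 17 member genes held them. Letters for NRF1, CRE, the TATA box and YY1 were also searched. In member windows they occurred in 2.44%, 0%, 9.76% and 2.44%, in that order. Over all windows the shares were 0.971%, 1.79%, 13.6% and 2.75%. In windows of the genes with a mean of at least 3 they were 2.05%, 2.93%, 7.7% and 4.74%. Windows of 1 gene overlap for Srsf4, Hnrnpa2b1 and Hnrnph1, so these counts are not independent.

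Hnrnpa3, an A/B type hnRNP close to Hnrnpa2b1, was the most variable member. It stood at 4.85, 3.82 and 4.91 in the WT libraries, against 4.97 in KO 2 and 4.70 in KO 3. WT 2 was about 1 log2 unit below WT 1 and WT 3, and the other 4 libraries lay between 4.70 and 4.97. Its range of 1.15 compares with a median range of 0.28 over the 30 members with a mean of at least 3 and of 0.31 over 8012 genes at that level, of which 2.61% had a range above 1. The log2 fold of Hnrnpa3 was 0.31 ± 0.34 (SE, limma, adjusted p = 0.99998), and it was -0.05 without WT 2. Hnrnpa2b1 was lowest in WT 2 as well, within its range of 0.10.

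Hnrnpa3 is also the member that shares most sequence with other genes. Its longest coding transcript in GENCODE vM21 aligned over at least 300 bases and at 90% identity or more to 35 pseudogenes, beside 15 for Hnrnpa1, 7 for Hnrnpf and 4 or fewer for each other member. In all, 14 of the 31 members had such a pseudogene. Genes of other types aligned to some members too. For Hnrnpf these included Gm28901, at 4.25 to 4.73 in the 5 libraries, and Gm47882, at 2.80 to 3.12. Of the 38 genes of any type that aligned to Hnrnpa3, 1 had a row in the deposited table, Gm17190, between 0.22 and 0.49. The stretch from coding base 301 to 390 is shown for Hnrnpa3 (chromosome 2, 75659261 to 75669407), for the pseudogene Gm5940 (X, 80456742 to 80457809) and for Gm17190 (13, 96082054 to 96083231), to show how close the copies are. Bases that differ from Hnrnpa3 are in capitals.
Hnrnpa3: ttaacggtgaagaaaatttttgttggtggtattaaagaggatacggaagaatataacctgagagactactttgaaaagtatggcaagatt
Gm5940: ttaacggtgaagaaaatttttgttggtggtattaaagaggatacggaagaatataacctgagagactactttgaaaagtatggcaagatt
Gm17190: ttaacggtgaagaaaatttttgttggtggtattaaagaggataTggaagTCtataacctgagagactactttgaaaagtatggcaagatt
Gm5940 had 0 mismatches over these 90 bases and Gm17190 had 3. Of the 34 such genes compared over the stretch, 12 were identical and 16 had from 1 to 3 mismatches. Every 50-base window of the Hnrnpa3 coding sequence, 1022 of 1022, occurred in the transcript of another annotated gene. Hnrnpf shared 96.1% of its windows and had a range of 0.29, and Srsf3 shared 89.4% with a range of 0.10. Hnrnpa1 (80.8%), Hnrnpk (75.1%) and Srsf10 (74.4%) followed, with ranges of 0.28, 0.17 and 0.35. The levels of these genes can depend on how reads with several matches were counted, a setting no label states. The windows cover coding sequence only, and untranslated parts were not searched in this way. The part of the copies in the low WT 2 value of Hnrnpa3 was not tested.

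**Figure D4:**
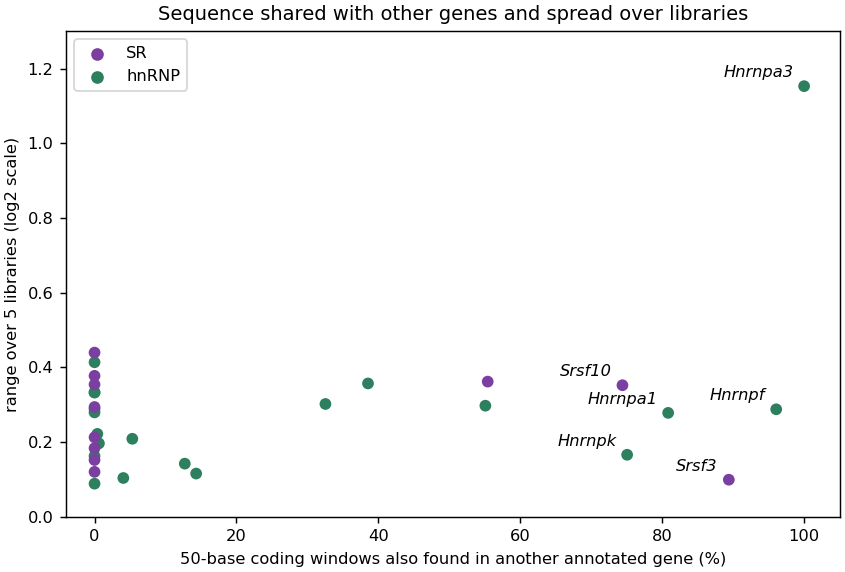
Range of each member over the 5 libraries (y axis, log2 scale) against the percentage of its 50-base coding windows that also occur in a transcript of another annotated gene (x axis). Hnrnpa3 stands at 100% and 1.15, and Hnrnpf, Srsf3, Hnrnpa1, Hnrnpk and Srsf10, which share over 70%, have ranges from 0.10 to 0.35.

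In KO 1, after rescaling, most covered members lay below their mean in the other 5 libraries, 14 of 16. That share was not counted over all genes. Set against the WT mean alone, 14 of 16 members were below it, beside 1917 of 3646 covered genes with a mean of at least 3. Of the 16, 7 were within the range of the other 5 libraries, 8 were below it and 1 was above it. Over about 3650 covered genes with a mean of at least 3, 34.8% were below that range and 27.5% above it. The median difference from the mean of the 5 was -0.10 for the members and -0.03 for those genes. Hnrnpa0 was farthest below, at 4.48 against 4.72 to 5.01, followed by Hnrnph1 at 5.91 against 6.13 to 6.33 and Hnrnpa1 at 4.94 against 5.07 to 5.35. Hnrnpul2 lay above the range by 0.03, at 5.001 against 4.85 to 4.97. Among the SR genes, Srsf2 (6.73), Srsf5 (5.95) and Srsf7 (5.24) were within the range, and Srsf1 (5.42) and Srsf3 (5.50) were below it by 0.02 and 0.09. These differences are small beside those of the gut markers in KO 1: the covered smooth muscle markers (3 of 8) summed to 17.6 in linear terms against 286 to 397 in the other libraries, and the proximal markers (4 of 4) to 182 against 1.75 to 4.53. The rescaling rests on 1 factor for the whole library, KO 1 is 1 library, and its part in any difference between KO and WT was not tested.

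Annotated transcripts of the members often end in decay. In GENCODE vM21, 9 of the 11 SR genes (81.8%) and 10 of the 20 hnRNP genes (50%) had at least 1 transcript of the nonsense-mediated decay type, beside 24.6% of 17086 protein-coding genes tested and 30.3% of 7841 of these with a mean of at least 3. A retained-intron transcript was annotated for 22 of the 31 members (71%), beside 64.6% of the protein-coding genes with a mean of at least 3. Srsf12 and Srsf10 were the SR genes with no transcript of the decay type. The table gives 1 value per gene, so productive and decay transcripts cannot be separated in these data.

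Other genes of the splicing pathway were taken from 6 lists, each with every gene tested. In each list, 0 genes passed by limma and 0 had an unadjusted p under 0.05. The SR-related proteins, which carry arginine-serine domains but differ from SR proteins in their RNA-binding part, had 20 of 22 folds above 0 (12 of 22 after median centring), with a median log2 fold of 0.07. In this list 8 of 22 genes (36.4%) had both KO libraries above all WT libraries, beside 9.82% of all genes: Acin1, Luc7l2, Rbm25, Rbm39, Rnps1, Srek1, Srrm1 and Thrap3. After centring, Rbm25, Srrm1 and Thrap3 remained, 13.6% beside 3.37% of all genes. Thrap3, a factor in splicing and messenger RNA decay, was at 5.86, 6.003 and 5.92 in the WT libraries, against 6.13 in KO 2 and 6.12 in KO 3. Acin1, a part of the exon junction periphery, was at 5.72, 5.72 and 5.55 in the WT libraries, with 5.76 for KO 2 and 6.14 for KO 3. The Acin1 fold was 0.29 ± 0.13 (SE), and KO 3 stood above the other 4 libraries. Tra2a, a splicing activator related to the SR proteins, was at 5.24, 4.81 and 4.67 in the WT libraries, with 5.03 for KO 2 and 4.49 for KO 3.

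The kinases that phosphorylate SR proteins, their import receptor and related genes had 9 of 13 folds above 0 (3 of 13 after centring), with a median of 0.02. Both KO libraries lay above WT for 2 of 13 (15.4%) and below for 0, beside 9.82% and 3.77% of all genes. After centring these were 1 of 13 (7.69%) each, beside 3.37% and 7.06% of all genes. Srpk3, an SR protein kinase known from muscle, was at 1.14, 1.56 and 1.20 in the WT libraries, against 1.88 in KO 2 and 1.62 in KO 3, and the kinase gene Clk3 had a log2 fold of 0.11. The summed level of 8 smooth muscle markers was 1095, 1466 and 1408 in the WT libraries, against 1133 in KO 2 and 1531 in KO 3, and its part in the Srpk3 values was not tested. Ppp1r8, a nuclear targeting subunit of protein phosphatase 1, had a log2 fold of -0.19, which was -0.08 without KO 3. The fold of the kinase gene Clk2 was -0.11 and ranged from -0.26 without WT 3 to -0.0073 without KO 3. The hnRNP genes with other symbols had 9 of 14 folds above 0 (5 of 14 after centring). For 1 of 14 (7.14%) both KO libraries lay above WT, and for 0 below. After centring these were 1 of 14 (7.14%) each. In this list, Cirbp, a cold-inducible RNA-binding protein, was at 4.26, 4.57 and 4.26 in the WT libraries, with 4.47 for KO 2 and 5.12 for KO 3, so KO 3 stood alone. Dazap1 had a log2 fold of 0.18. The fold of Tardbp (TDP-43) was -0.16, but -0.02 without KO 3 and -0.04 without WT 3, and that of Raly was -0.05, but -0.004 without WT 3.

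Of the tissue-regulated splicing factors, 20 of 28 had folds above 0 (14 of 28 after centring), with a median of 0.06. For 3 of 28 (10.7%) both KO libraries lay above WT, beside 9.82% of all genes, and for 0 below. After centring these were 1 of 28 (3.57%), beside 3.37% of all genes, and 0. Of the neuronal genes of this list, Elavl3 stood between 0.53 and 0.92 and Rbfox3 between 0.19 and 0.58 in the 5 libraries. Elavl4 was higher, between 1.66 and 2.27. Rbm20, a regulator of titin splicing in muscle, was at 0.33, 0.37 and 0.52 in the WT libraries, with 0.43 for KO 2 and 1.12 for KO 3, where KO 3 again stood alone. Folds of genes at such levels depend on the assumed constant. Elavl1 (HuR) had a log2 fold of -0.06, which turned to 0.12 without KO 3. The core spliceosome list had 32 of 50 folds above 0 (19 of 50 after centring), a median of 0.03 and 4 genes (8%) with both KO libraries above WT, beside 9.82% of all genes. After centring, that count was 0 of 50. Its higher members with the smallest p were Snrnp70 of the U1 particle (log2 fold 0.23) and Sf3a2 of the U2 particle (0.14). Its lower members with the smallest p were the Sm protein gene Snrpf (-0.18) and Prpf31 (-0.12). Without KO 3 the folds were 0.03 for Snrnp70, -0.03 for Snrpf and -0.01 for Prpf31. Snrnp70 was at 5.74, 5.78 and 5.61 in the WT libraries, with 5.74 for KO 2 and 6.13 for KO 3, so KO 2 lay inside the WT range. The exon junction complex and nonsense-mediated decay list had 13 of 18 folds above 0 (10 of 18 after centring). It had 4 of 18 genes (22.2%) with both KO libraries above WT, beside 9.82% of all genes, and 0 below. After centring these were 1 of 18 (5.56%), beside 3.37% of all genes, and 0. The log2 folds were 0.22 for Magohb, 0.19 for Upf2, -0.17 for Smg5 and -0.05 for Magoh. The Smg5 fold turned to 0.03 without KO 3 and that of Magoh to 0.05 without WT 3.

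The genes of the series title, Dhx9 and Ffar3, were looked at because the labels do not name the deleted gene. Dhx9, a helicase that binds RNA and DNA and associates with hnRNPs, was at 5.94, 6.01 and 5.97 in the WT libraries, against 6.17 in KO 2 and 6.08 in KO 3. Its log2 fold of 0.15 ± 0.08 (SE, limma, adjusted p = 0.99998) was of the size seen in Srsf11 and Hnrnpul1, and rescaled KO 1 stood at 6.03. Ffar3, the receptor GPR41, was between 0.18 and 0.60 in the 5 libraries.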

How the data were processed

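TRIzol-extracted, poly(A)-selected RNA from intestine was profiled in 6 libraries (3 WT, 3 KO). The authors deposited 1 table of log values, taken here as log2(abundance + 1); the build was mm10, per the submitters' processing notes. Not given in the sources used here are the aligner, counting tool, strand setting, abundance unit, log base and constant. The values show no counts, so depth is unknown and no counting interval is given.

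Of 32245 rows, 26 with a date in place of a symbol were left out. GENCODE vM21 placed 31398 of 32219 symbols. Genes above 0 in at least 3 of 5 libraries were kept (22047). KO 2 and KO 3 were compared with 3 WT libraries using a variance trend in limma 3.58.1 (R 4.3.3) and Benjamini-Hochberg adjustment over all genes kept, at a threshold of 0.05. The fit was tested on simulated data. KO 1 was divided by 2.12 in linear terms and treated as missing where it holds no values.

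The members and gene lists were chosen with earlier results of these data known. Named were the 5 members with the smallest p in each direction, the 3 widest and 3 narrowest ranges over the libraries among members with a mean of at least 1, members without overlap, covered members farthest outside the range in KO 1, and 2 genes in each direction of each list. Other members are given by level. The genes shown as sequence were chosen after their values were seen. Alternatives were each library left out, all 6 libraries, a replicate block, other scalings, filters, constants, log base and variance models.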

Additional observations from a re-analysis of the deposited data

How the results depend on the processing

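By limma, 0 members and 0 genes of the 6 lists passed under any of the 17 alternatives run. The count over all genes was 1 and fell to 0 with all 6 libraries as deposited, with the replicate block, without a filter, with the filter at a mean of 1 and with a constant of 0.1, and it was 0 (range 0 to 0) when any of the 5 libraries was left out. The SR median fold of 0.0434 was -0.241 with all 6 libraries as deposited, 0.0140 with KO 1 rescaled, -0.0136 with median centring and 0.0229 (without WT 2) to 0.0680 (without KO 3) with libraries left out. The hnRNP median of 0.0607 was 0.238, 0.0319 and 0.00374 under the same 3 settings, 0.0448 with the replicate block, 0.0393 with quantile normalization, 0.0876 with base e and 0.0448 to 0.0684 with libraries left out. As deposited, the zeros of KO 1 pull down the folds of genes it does not cover and its scale lifts the others. Under that setting the folds were -1.43 for Hnrnpd, -1.80 for Hnrnpul1, -1.91 for Srsf11, -1.30 for Hnrnpa3, -1.16 for Srsf4, -2.36 for Hnrnpa2b1, -0.0979 for Ffar3, -0.136 for Srpk3, -1.24 for Clk3, -1.85 for Thrap3, -0.0476 for Elavl3, -1.75 for Snrnp70, -0.864 for Magohb and -0.926 for Upf2, and 0.242 for Hnrnpc, 0.323 for Hnrnpab, 0.235 for Hnrnph1, 0.332 for Hnrnpu and 0.172 for Snrpf. Folds near 0 also turned with KO 1 rescaled (Srsf3 -0.0164), with median centring (Hnrnpll -0.0226, Srsf3 -0.0136, Hnrnpa2b1 -0.0170) and with the replicate block (Hnrnph1 0.0259, Tra2a 0.0198). Single libraries turned others. Without KO 2 or KO 3, ranges reached from -0.287 to 0.0518 for Hnrnpc, -0.175 to 0.159 for Hnrnpu, -0.416 to 0.122 for Tra2a, -0.130 to 0.108 for Rsrc2, -0.238 to 0.123 for Elavl1 and -0.365 to 0.0349 for Smg5, the higher value in each without KO 3. Over all left-out libraries, folds ran from -0.116 to 0.0909 (without WT 3) for Hnrnpab, -0.141 to 0.0529 (without WT 3) for Magoh, -0.0288 (without WT 3) to 0.191 for Srsf4, -0.0454 (without WT 2) to 0.501 for Hnrnpa3, -0.0584 (without KO 3) to 0.178 for Ffar3 and -0.0723 to 0.0259 (without WT 1) for Hnrnph1. With 1 KO library left, its spread is taken from the WT group. The replicate block leaves WT 1 alone in its block, so its folds are the same as those without WT 1. Median centring shifts the fold of every gene by the same amount. For the other folds that turned outside the gap in KO 1, the cause was not tested. Deviations from the group mean in same-numbered libraries had correlations of 0.303 for number 2 and 0.346 for number 3. With 2 KO libraries, the deviation of KO 3 is the negative of that of KO 2. The 2 correlations are therefore not separate results, and they do not establish pairing. Depth is unknown, so no limit from counting can be given.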
